A study of Mus musculus with 27 samples.

Results

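The data concern 9 transcription factors that set epithelial identity, namely Grhl1, Grhl2, Ovol1, Ovol2, Elf3, Elf5, Ehf, Klf4 and Klf5, followed through TGF-β-induced epithelial-to-mesenchymal transition (EMT) in NMuMG cells, a normal mouse mammary epithelial line. They were taken by gene symbol, and all 9 had a row in both expression tables, which held 23295 genes for parental cells and 24247 genes for shRNA cells. Cells were untreated or received TGF-β, labelled as 1 to 5 ng/ml, for 8 or 24 h, in the 10% serum and insulin medium that all groups shared. Total RNA was sequenced from parental cells (2 libraries at each of 3 times), and from cells carrying a control shRNA (shCT) or an shRNA against lamin B1 (shLB, here KD), again with 2 libraries at each of 3 times. The control shRNA is described as irrelevant, and both shRNA arms were infected cells. Lamin B1 ChIP-seq and ATAC-seq were made in parental cells with 1 library per time and assay, so that peaks carry no replicate check. Hi-C libraries of the same 3 times were not analysed here.

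The 9 genes belong to 4 families. Grainyhead-like factors (Grhl1, Grhl2) bind the enhancers of junction genes and keep them open, Ovol1 and Ovol2 are zinc-finger repressors that silence mesenchymal regulators such as Zeb1, and Elf3, Elf5 and Ehf form the epithelium-specific branch of the ETS family. Klf4 and Klf5 are Krüppel-like factors that bind GC-rich promoters and maintain simple and stratified epithelia. In the mammary gland Elf5 directs the alveolar, milk-producing fate, and loss of the grainyhead and Ovol factors accompanies EMT in many carcinoma models.

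Expression was given as FPKM (fragments scaled to transcript length and to library size), a unit that allows levels of different genes to be set side by side within a table. The label of the cells was checked against markers first. Keratins 8 and 18 stood at 1720 FPKM or more in all 18 libraries and E-cadherin (Cdh1) at 113 and 119 FPKM in untreated parental cells, but Epcam was at 0.383 and 0.319 FPKM there and Cldn7 reached at most 0.0379 FPKM in any library. Other cell types were checked by summed marker levels. The 5 immune markers summed to 1.14 to 2.23 FPKM over the 18 libraries, the 4 endothelial markers to 0.0132 to 1.65 FPKM and the 5 alveolar luminal markers to at most 0.0927 FPKM. The 6 fibroblast markers went in sum from 2.52 and 2.63 FPKM untreated to 5.95 and 5.997 FPKM at 24 h in parental cells. In shRNA cells they went from at most 0.237 FPKM untreated to between 1.30 and 1.87 FPKM at 8 h, and stood between 0.75 and 1.29 FPKM at 24 h. The 6 basal markers went from at most 4.92 FPKM in untreated shRNA cells to between 24.9 and 30.6 FPKM at 8 h, and stood between 3.25 and 5.47 FPKM at 24 h. Only 1 of these 6 had a mean of 1 FPKM or more at 8 h in each shRNA arm. The part of such cells in the results was not tested, and in bulk RNA fewer cells of a type and less RNA per cell cannot be told apart. Replicate libraries correlated with r between 0.960 and 0.990 over tested genes (log2 scale), and no pair was a copy. Relative depth, read from the value of a single fragment in genes of low FPKM, ran from 92.8% to 116% of the first library in the parental table and from 79.0% to 112% in the shRNA table, while the absolute depth is unknown. The labels do not say that libraries of a group came from separate cultures, although the study describes them as biological replicates, and p-values measure the spread between these libraries.

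In untreated cells 5 of the 9 genes were expressed and 4 were close to silent. In untreated parental cells the order was Elf3 at 42.9 ± 1.06 FPKM, Klf5 at 31.8 ± 1.33, Ehf at 23.5 ± 1.49, Klf4 at 22.5 ± 0.385 and Grhl1 at 1.24 ± 0.0367 FPKM (mean ± SD, n = 2 for each). The neighbours Ehf and Klf4 were within their spread, since the Ehf libraries stood at 22.5 and 24.6 FPKM and the Klf4 libraries at 22.8 and 22.2 FPKM. Grhl1, although counted as expressed, was higher than only 5.30% of the 11309 tested genes in untreated parental cells, whereas Elf3 was higher than 82.1% of them. Grhl2, Ovol1, Ovol2 and Elf5 stayed at or below 0.354 FPKM in all 18 libraries.

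A filter of at least 1 FPKM in at least 2 libraries kept the same 5 of 9 members in both tables, and the tests below refer to these. A gene could pass this filter through 1 group alone, and the count of members that passed is no support for a difference between groups. Differences are on the scale log2(FPKM + 1), fitted with limma over all genes of a table (11309 parental, 11450 shRNA), and called where the Benjamini-Hochberg adjusted p was under 0.05. Because 1 FPKM is added, such differences understate the change of Grhl1 and of Ehf at late times, for which the ratio of mean FPKM is given as well.

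**Figure D1:**
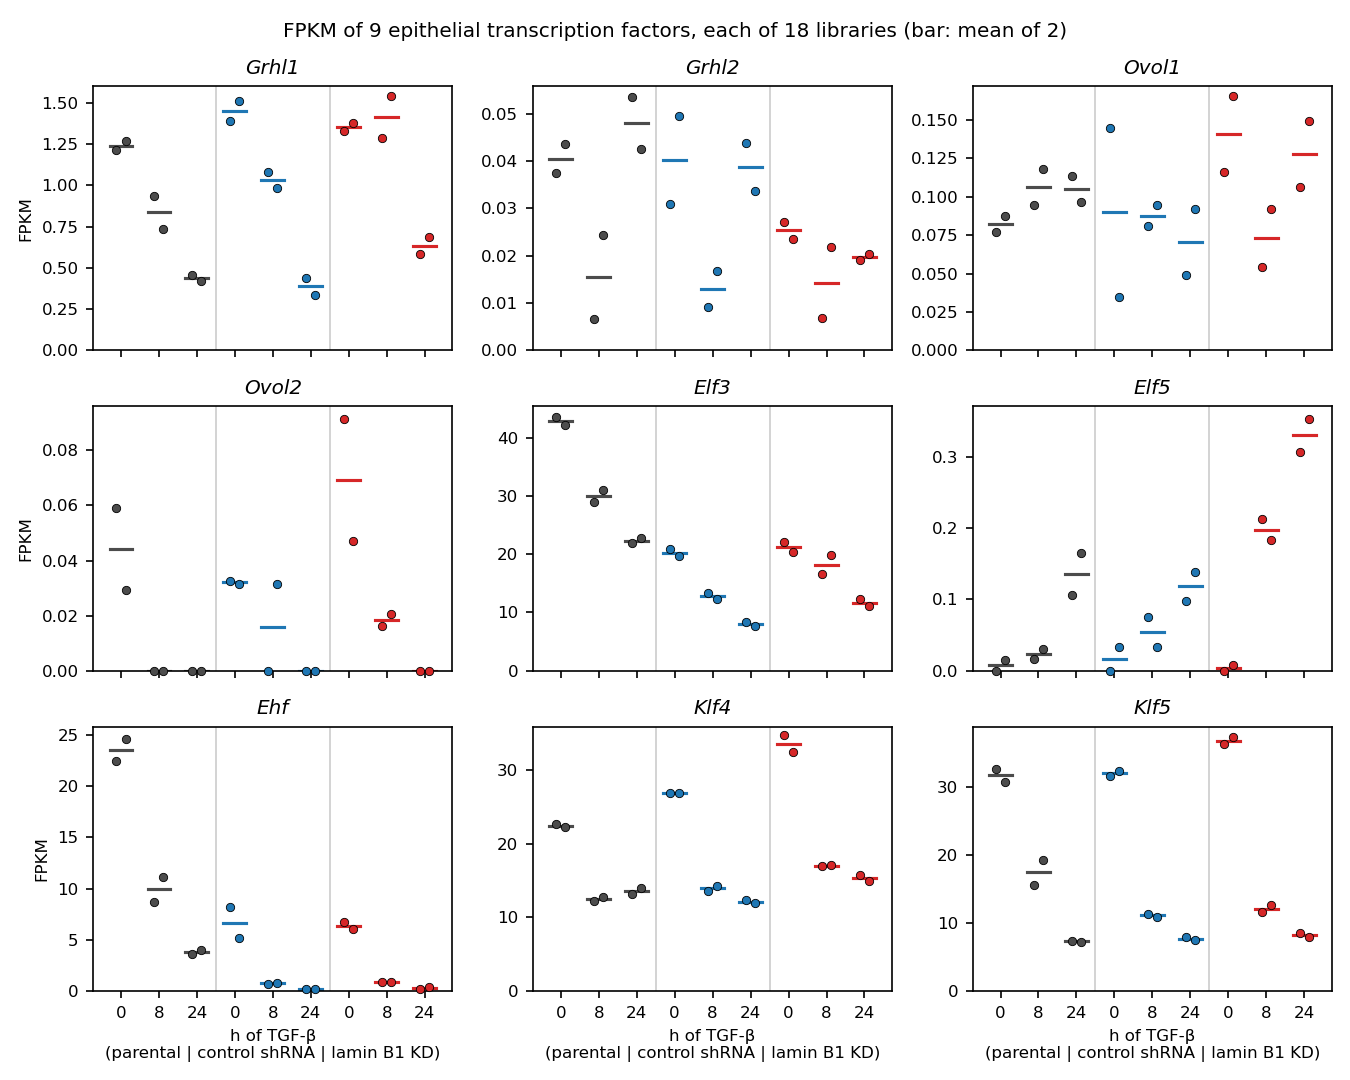
FPKM of each of the 9 genes (vertical axis, linear, a scale of its own for each gene) at 0, 8 and 24 h of TGF-β (horizontal axis) in parental (grey), control shRNA (blue) and lamin B1 KD cells (red), with a point per library and a bar at the mean of 2. Elf3, Ehf, Klf4, Klf5 and Grhl1 are lower at 24 h than untreated in each cell type, whereas Elf5 climbs in each, from at most 0.0328 FPKM untreated to 0.354 FPKM in KD cells at 24 h.

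The first comparison asked how the members respond to TGF-β in parental cells. Ehf, Klf5, Elf3, Klf4 and Grhl1 each fell at 8 h and at 24 h against untreated cells, when 32.1% of all tested genes were called lower at 8 h and 37.1% at 24 h. Grhl1 passed the filter in this table only through its 2 untreated libraries, where it was highest, so that its fall is not counted as support. The other 4 were above 1 FPKM in all 6 parental libraries.

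Ehf, an ETS factor of differentiated epithelium, showed the deepest loss of the 5. Its untreated libraries stood at 22.5 and 24.6 FPKM, its 8 h libraries at 8.72 and 11.1 FPKM, and those of 24 h at 3.65 and 3.998 FPKM. The 3 times did not overlap, and the 24 h mean was 6.15 times lower than the untreated mean. The log2 difference was -1.18 ± 0.11 (SE, adjusted p = 0.000174) at 8 h and -2.35 ± 0.11 (adjusted p = 2.83e-06) at 24 h.

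Klf5, which supports proliferating epithelium, went from 32.7 and 30.8 FPKM untreated to 15.7 and 19.3 FPKM at 8 h, then to 7.42 and 7.22 FPKM at 24 h, again without overlap. It fell by 0.83 ± 0.09 on the log2 scale at 8 h (adjusted p = 0.000366) and by 1.98 ± 0.09 at 24 h (adjusted p = 2.98e-06). Elf3, an inducible ETS factor of simple epithelia, was at 43.6 and 42.1 FPKM untreated, at 29.0 and 31.0 FPKM after 8 h, and after 24 h at 22.0 and 22.7 FPKM. The Elf3 loss was smaller, at -0.50 ± 0.05 (adjusted p = 0.000211) and -0.91 ± 0.05 (adjusted p = 5.03e-06), and Elf3 kept 52.1% of its untreated mean at 24 h.

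Klf4, a factor of differentiated and barrier epithelia, was the tested member that did not fall further after 8 h in parental cells. Between 8 and 24 h its mean went from 13.97 to 12.15 FPKM in control shRNA cells and from 17.03 to 15.36 FPKM in KD cells. That step was not tested in shRNA cells. The parental Klf4 libraries held 22.8 and 22.2 FPKM untreated, 12.2 and 12.8 FPKM after 8 h, and after 24 h 13.2 and 13.9 FPKM. Both treated times lay below both untreated libraries (-0.80 ± 0.05, adjusted p = 4.67e-05 at 8 h, and -0.69 ± 0.05, adjusted p = 1.89e-05 at 24 h). Between 8 and 24 h Klf4 differed by 0.11 (95% interval -0.01 to 0.23, adjusted p = 0.0989), whereas the other 4 members fell further, beside 24.0% of all tested genes called lower in that step. The further loss was -1.17 for Ehf, -1.15 for Klf5, -0.41 for Elf3 and -0.35 for Grhl1.

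Grhl1, the grainyhead factor linked to desmosomes, was at 1.21 and 1.27 FPKM untreated, at 0.937 and 0.736 FPKM after 8 h, and after 24 h at 0.457 and 0.419 FPKM. The untreated and treated libraries did not overlap, and the 24 h mean was 2.83 times lower than the untreated mean. Its log2 difference was -0.29 ± 0.08 at 8 h (adjusted p = 0.0210) and -0.64 ± 0.08 at 24 h (adjusted p = 0.000333). The 8 h call was lost without either untreated library (adjusted p = 0.0733 and 0.0956) and without the second 8 h library (0.0780), and the 24 h against 8 h call without the second 24 h library (0.0597).

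The control shRNA cells gave a separate time course, in which Klf5, Elf3, Klf4, Grhl1 and Ehf again each fell at 8 h and at 24 h. Ehf reached 1 FPKM in this table only in untreated libraries, so that its fall is not counted as support. Of all tested genes, 44.9% were called lower at 8 h and 45.1% at 24 h. In this table the median of all genes was shifted down by 0.12 at 8 h and 0.13 at 24 h relative to quantile-normalized values, and the share of calls that were lower went from 69.8% to 54.0% at 8 h and from 63.9% to 50.01% at 24 h under that scaling. For the members the quantile-normalized differences at 24 h were -2.50 for Ehf, -1.81 for Klf5, -1.13 for Elf3, -0.95 for Klf4 and -0.72 for Grhl1, and all 5 were still called. At 8 h Grhl1 was not (-0.14, adjusted p = 0.160).

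Ehf nearly vanished from control shRNA cells, going from 8.18 and 5.16 FPKM untreated to 0.708 and 0.806 FPKM after 8 h and, after 24 h, 0.153 and 0.174 FPKM. The 24 h mean was 40.8 times lower than the untreated mean, although the untreated libraries were themselves spread (SD 2.13 FPKM). The fitted difference was -2.10 ± 0.16 at 8 h and -2.69 ± 0.16 at 24 h (adjusted p = 7.43e-06 and 8.61e-07). Ehf was at 23.5 FPKM in untreated parental and at 6.67 ± 2.13 FPKM in untreated control shRNA cells, 2 tables that may be scaled differently, so that no test was made between them.

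Klf5 in control cells stood at 31.7 and 32.4 FPKM untreated, 11.4 and 10.9 FPKM after 8 h, and after 24 h 7.89 and 7.48 FPKM, a fall of 1.45 ± 0.05 and then 1.93 ± 0.05 on the log2 scale (adjusted p = 9.80e-08 and 1.10e-08). Elf3 went from 20.9 and 19.6 FPKM to 13.3 and 12.3 FPKM and then 8.32 and 7.64 FPKM (-0.62 ± 0.09 and -1.25 ± 0.09, adjusted p = 0.000309 and 2.46e-06). Klf4 went from 26.9 and 26.9 FPKM to 13.6 and 14.3 FPKM and then 12.4 and 11.9 FPKM (-0.90 ± 0.05 and -1.08 ± 0.05, adjusted p = 8.92e-07 and 1.50e-07). In each of these genes the 2 libraries of every time stood apart from those of the other times.

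Grhl1 in control cells was at 1.39 and 1.51 FPKM untreated, 1.08 and 0.984 FPKM after 8 h, and after 24 h 0.440 and 0.337 FPKM. It was 3.74 times lower at 24 h, with a log2 difference of -0.82 ± 0.07 (adjusted p = 1.09e-05), and the smaller change at 8 h (-0.27 ± 0.07, adjusted p = 0.0111) was lost without shCT 0 h replicate 2 (adjusted p = 0.0521) or shCT 8 h replicate 2 (0.0704).

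**Figure D2:**
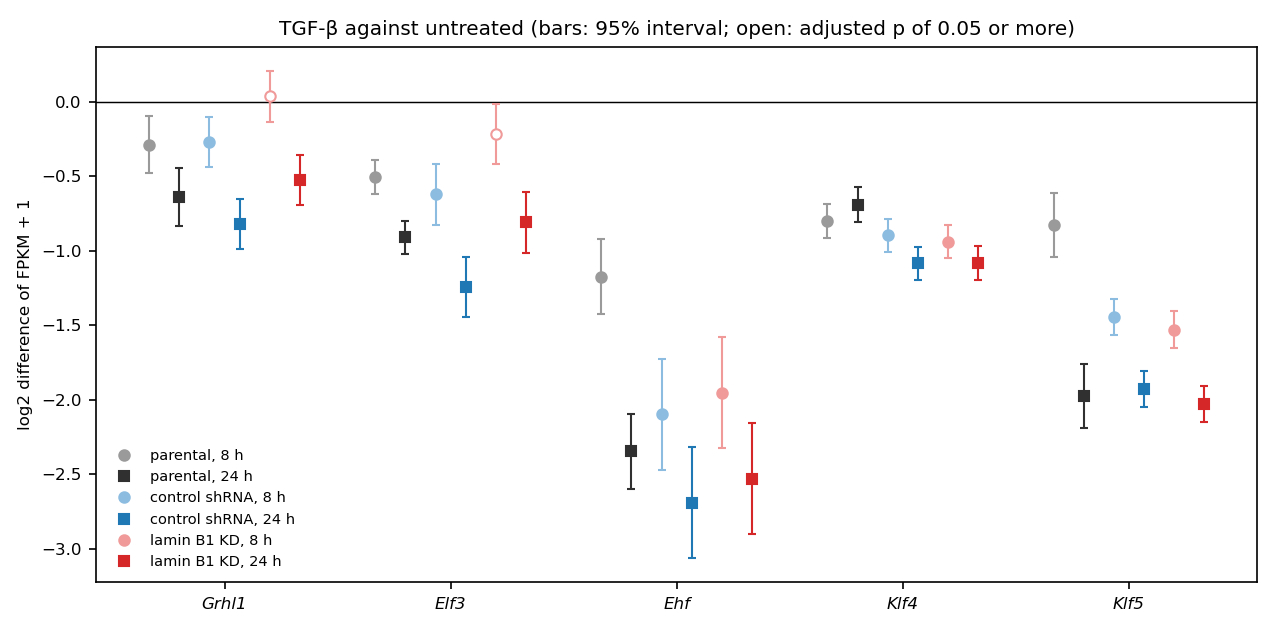
Difference on the log2(FPKM + 1) scale (vertical axis) between TGF-β-treated and untreated cells for the 5 tested genes, in parental (grey), control shRNA (blue) and lamin B1 KD cells (red), at 8 h (circles) and 24 h (squares), with 95% intervals and open symbols where the adjusted p was 0.05 or more. Ehf and Klf5 reach the lowest values, and the 2 open symbols are Grhl1 and Elf3 in KD cells at 8 h.

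Cells depleted of lamin B1 tested whether the same losses occur with less lamin B1. Lmnb1 itself was at 29.2 and 36.5 FPKM in untreated control and 9.01 and 9.27 FPKM in untreated KD cells, 32.8 and 32.1 against 7.79 and 8.14 FPKM at 8 h, and 18.4 and 17.9 against 4.37 and 7.52 FPKM at 24 h. The knockdown was thus present in each KD library, and Lmnb1 RNA fell by 0.82 ± 0.18 on the log2 scale with 24 h of TGF-β in control cells too (adjusted p = 0.00317).

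In KD cells Klf5, Klf4 and Ehf fell at 8 h and all 5 tested members at 24 h, Ehf under the same limit of the filter, beside 44.8% and 43.3% of all tested genes called lower. The all-gene median was shifted down by 0.10 at 8 h relative to quantile-normalized values, under which the share of calls that were lower went from 66.1% to 54.0% at 8 h and from 60.2% to 49.9% at 24 h, while the same 3 and 5 members were called. Ehf (6.74 and 6.04 FPKM untreated, 0.896 and 0.918 FPKM after 8 h, 0.170 and 0.396 FPKM after 24 h) and Klf5 (36.3 and 37.4, then 11.6 and 12.6, then 8.54 and 8.00 FPKM) fell without overlap between untreated and treated libraries. Their 8 h differences were -1.95 ± 0.16 and -1.53 ± 0.05 and their 24 h differences -2.53 ± 0.16 and -2.03 ± 0.05. Klf4 went from 34.8 and 32.5 FPKM to 17.0 and 17.1 FPKM and then to 15.8 and 14.9 FPKM (-0.94 ± 0.05 and -1.08 ± 0.05).

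The 2 members that did not pass the test at 8 h in KD cells were Elf3 and Grhl1. Elf3 stood at 22.1 and 20.4 FPKM untreated, 16.6 and 19.9 FPKM after 8 h, and 12.2 and 11.2 FPKM after 24 h, with an 8 h difference of -0.22 (95% interval -0.42 to -0.01, adjusted p = 0.0580). Without shLB 8 h replicate 2, the higher of the pair, Elf3 passed at 8 h (-0.34, adjusted p = 0.0115). Grhl1 stood at 1.33 and 1.38 FPKM untreated, 1.29 and 1.54 FPKM after 8 h, and 0.583 and 0.685 FPKM after 24 h. Its 8 h difference was 0.04 (95% interval -0.13 to 0.21, adjusted p = 0.683), and the 8 h libraries enclosed the untreated ones. At 24 h both had fallen, Elf3 by 0.81 ± 0.09 and Grhl1 by 0.53 ± 0.07 on the log2 scale (adjusted p = 3.96e-05 and 0.000195).

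KD and control cells were then compared at each time. In untreated cells Klf4 and Klf5 were higher in KD cells, at 8 and 24 h Elf3, Grhl1 and Klf4 were higher, and no member was called lower. The background of genes called higher in KD cells was 10.6% untreated, 19.3% at 8 h and 16.8% at 24 h.

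Klf4 was the member that was higher in KD cells at all 3 times. Its log2 difference was 0.31 ± 0.05 untreated (adjusted p = 0.00388), 0.27 ± 0.05 at 8 h (adjusted p = 0.00372) and 0.31 ± 0.05 at 24 h (adjusted p = 0.00268), that is a mean 1.25, 1.22 and 1.26 times the control mean. Neither KD library overlapped a control library at any time. The 24 h call was lost in a fit of only the 2 groups compared (adjusted p = 0.0644).

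Elf3 showed no call in untreated cells (0.06, 95% interval -0.14 to 0.27, adjusted p = 0.663) but was 1.42 times higher in KD cells at 8 h and 1.47 times higher at 24 h. The log2 differences were 0.47 ± 0.09 (adjusted p = 0.00438) and 0.50 ± 0.09 (adjusted p = 0.00483), the latter at adjusted p = 0.0520 in a fit of only the 2 groups. Grhl1 was 1.37 times higher at 8 h and 1.63 times higher at 24 h (0.25 ± 0.07 and 0.24 ± 0.07, adjusted p = 0.0307 and 0.0443), and was -0.06 in untreated cells (adjusted p = 0.623). Both Grhl1 calls were near the threshold and held in only 4 of 9 alternatives at 8 h and 2 of 9 at 24 h. They were lost under quantile normalization (adjusted p = 0.0745 and 0.131) and, at 24 h, without shCT replicate 1 (0.0879), shCT replicate 2 (0.225) or shLB replicate 2 (0.142), and at 8 h without the libraries of the same names (0.0740, 0.157 and 0.198). The 8 h call was also lost with a constant of 0.1 (0.0588), and the 24 h call without the filter (0.0501), with a replicate block (0.0580) and in a fit of only the 2 groups (0.114).

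Klf5 was 1.15 times higher in untreated KD cells (0.20 ± 0.05, adjusted p = 0.0350), a call that was lost without shCT replicate 1 (adjusted p = 0.0915), shCT replicate 2 (0.0739), shLB replicate 1 (0.118) or shLB replicate 2 (0.182). At 8 and 24 h the Klf5 difference was 0.11 (95% interval -0.01 to 0.23) and 0.09 (-0.03 to 0.22). Ehf was not called at any time, with intervals of -0.40 to 0.34 untreated, -0.25 to 0.49 at 8 h and -0.24 to 0.51 at 24 h. At 8 and 24 h it was under 1 FPKM in both arms, where this scale understates a difference. Its KD mean was 1.20 times the control mean at 8 h, without overlap, and 1.73 times at 24 h, with overlap.

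Whether the TGF-β response itself differed between KD and control cells was tested as an interaction. None of the 5 tested members was called by limma at 8 or 24 h, beside 4.06% and 4.72% of all tested genes called in either direction (at 24 h 42.0% of those calls were negative, and 52.1% after quantile normalization). At an unadjusted p under 0.05 there were 2 at each time, Elf3 and Grhl1. The Elf3 response was less negative in KD cells by 0.41 (95% interval 0.12 to 0.69, adjusted p = 0.114) at 8 h and 0.44 (0.15 to 0.72, adjusted p = 0.0865) at 24 h. For Grhl1 the values were 0.31 (0.07 to 0.55, adjusted p = 0.142) and 0.29 (0.06 to 0.53, adjusted p = 0.141). Klf4, whose KD level was higher at all times, gave -0.04 (-0.20 to 0.11) and 0.00 (-0.16 to 0.16).

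**Figure D3:**
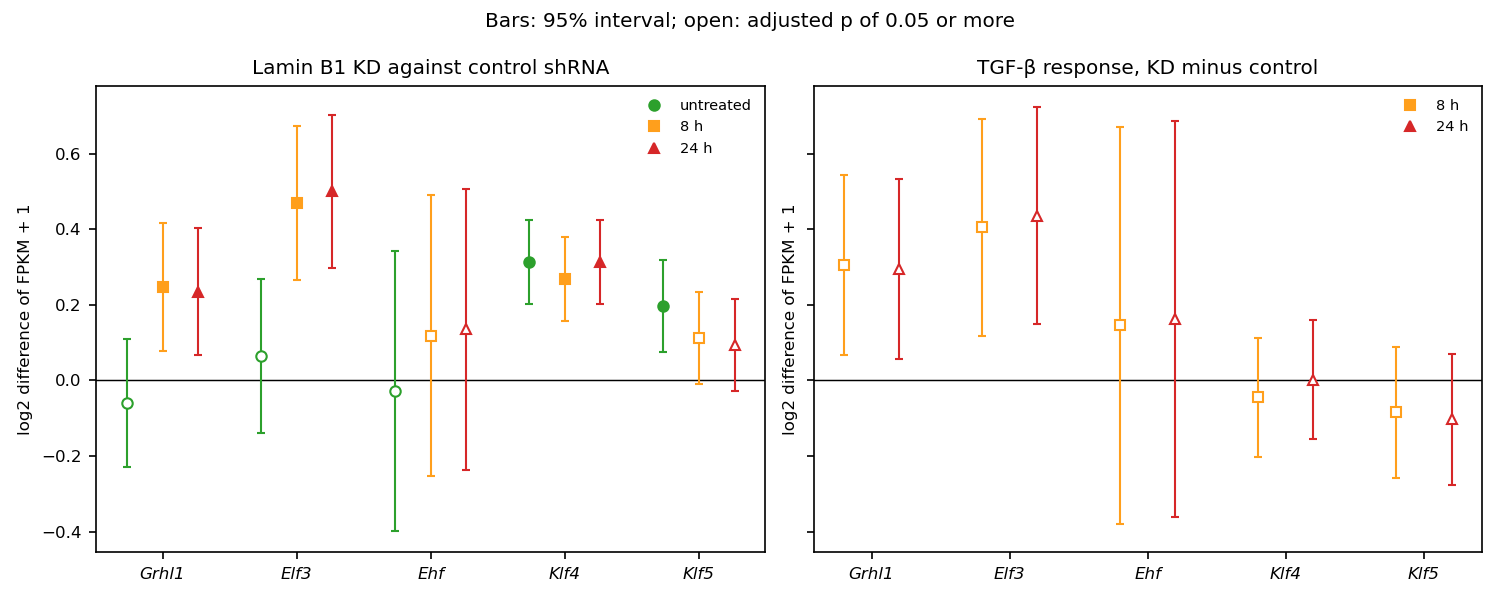
Left, difference on the log2(FPKM + 1) scale (vertical axis) between lamin B1 KD and control shRNA cells for the 5 tested genes, untreated (circles), at 8 h (squares) and at 24 h (triangles). Right, difference between KD and control cells in the response to TGF-β at 8 and 24 h. Bars are 95% intervals and open symbols have an adjusted p of 0.05 or more. Klf4 lies near 0.3 at all 3 times on the left, and every symbol on the right is open.

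The 4 remaining members were measured near the limit of detection. Low FPKM values in these tables fall on steps of a single fragment, and after correction for relative depth the values of each of the 4 genes were whole multiples of a common unit within 0.0449 of a fragment or less. Read as the smallest whole numbers that satisfy this, Grhl2 had 1 to 10 fragments per parental library and 2 to 15 per shRNA library, Ovol1 had 7 to 12 and 6 to 28, and Ovol2 had 0 to 2 and 0 to 5. Counting error at this level is large, and the fragment numbers say nothing of other error.

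Ovol1 was at 0.0768 and 0.0876 FPKM untreated, 0.0946 and 0.118 FPKM after 8 h, and 0.113 and 0.0963 FPKM after 24 h in parental cells. Grhl2 was at 0.0374 and 0.0435, then 0.00672 and 0.0244, then 0.0535 and 0.0426 FPKM. Ovol2 was at 0.0591 and 0.0294 FPKM untreated, which is 2 fragments and 1 fragment, and was listed at 0 in all 4 treated parental libraries. It was also at 0 in all 4 shRNA libraries at 24 h, where 3 fragments, the limit that a count of 0 allows, would be 0.0450 to 0.0563 FPKM. In a limma fit without the filter Ovol2 was called lower in parental cells at 8 and 24 h (-0.06 at both times, adjusted p = 0.0457 and 0.0332) and in KD cells at 8 and 24 h (-0.07 and -0.10, adjusted p = 0.0215 and 0.00424), and Grhl2 in control cells at 8 h (-0.04, adjusted p = 0.0244). In that fit 19.9%, 25.0%, 29.5%, 28.8% and 28.9% of genes were called lower in these 5 comparisons, in the order given. The Ovol2 calls rest on 3 fragments in all in parental cells and 8 in untreated KD cells, and Ovol1 was not called in any comparison.

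Elf5, the alveolar ETS factor, differed from the other 3 silent members in that it rose with TGF-β and rose more in KD cells. In parental cells it had 0 fragments and 1 fragment untreated, 1 and 2 at 8 h, and 8 and 11 at 24 h (0.106 and 0.165 FPKM). In control shRNA cells it had 0 and 4 untreated, 10 and 4 at 8 h, and 10 and 15 at 24 h. In KD cells it had 0 and 1 untreated, 25 and 17 at 8 h, and 39 and 42 at 24 h, the latter being 0.307 and 0.354 FPKM against 0.0984 and 0.139 FPKM in the control libraries of that time. Thus both KD libraries lay above both control libraries at 8 h and at 24 h.

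Elf5 failed the filter on low values, and its tests come from a limma fit over all genes with a value above 0 in some library (17972 parental, 19170 shRNA), chosen for attention after its values were seen. There it was higher at 24 h than untreated by 0.17 ± 0.03 in parental (adjusted p = 0.00618), 0.14 ± 0.03 in control (adjusted p = 0.00506) and 0.41 ± 0.03 in KD cells (adjusted p = 1.30e-05), beside 23.8%, 19.5% and 21.8% of genes called higher. KD exceeded control by 0.18 ± 0.03 at 8 h (adjusted p = 0.00501) and 0.25 ± 0.03 at 24 h (adjusted p = 0.00220), beside 11.1% and 9.51% of genes. The difference in response at 24 h was 0.27 ± 0.04 (adjusted p = 0.0211, beside 2.91% of genes), and it lost its call without shLB 0 h replicate 1 (adjusted p = 0.0706), shLB 0 h replicate 2 (0.0645) or shCT 24 h replicate 1 (0.0771). In parental cells the 24 h call was lost without the first untreated library (0.0552). The 5 alveolar luminal markers, milk protein genes and Kit, summed to at most 0.0149 FPKM in the KD libraries of 24 h, where Elf5 was highest.

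Ehf and Elf5 lie on chromosome 2, transcribed away from each other with 108410 bp between their start sites. The start site of another annotated gene, A930006I01Rik, lies between them. Ehf fell while Elf5 rose in parental, control and KD cells, and a link between the 2 changes was not tested.

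Other genes of these pathways were read from fixed lists. Of 21 relatives (further Grhl, Ovol, Elf and Klf genes and Spdef, 20 of them in the parental table), 12 were tested in parental cells, and at 24 h 7 rose, 3 fell and 2 were not called, with a median of 0.29. Here 33.4% of all tested genes were called higher and 37.1% lower. The largest rises were Klf10, a TGF-β-inducible early factor (20.3 and 21.2 FPKM untreated, 37.8 and 36.2 FPKM at 24 h), and Klf9 (6.86 and 6.57, then 12.04 and 11.93 FPKM), and the largest falls were Klf3, a repressor (31.6 and 32.8, then 19.2 and 20.3 FPKM), and Klf16 (8.88 and 8.11, then 7.201 and 7.191 FPKM). In control shRNA cells 5 of 13 tested relatives rose and 3 fell at 24 h, when 25.5% of all genes were called higher and 45.1% lower. Klf10 and Klf3 were again among these relatives, whereas Klf9 (0.05, adjusted p = 0.605) and Klf16 (-0.01, adjusted p = 0.872) were not called.

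Of 30 epithelial effectors (junction, keratin and protease genes, among them targets of the members), 18 were tested in parental cells. At 8 h 8 rose and 8 fell (median -0.02, with 22.4% of all tested genes called higher and 32.1% lower), and at 24 h 11 fell and 4 rose (median -0.65, with 37.1% of all tested genes called lower and 33.4% higher). Keratin 19 went from 1005 and 982 FPKM to 55.5 and 69.1 FPKM, and Spint2, an inhibitor of membrane serine proteases, from 165 and 153 FPKM to 48.0 and 48.4 FPKM. Against this direction Cldn4, a tight-junction claudin, rose from 0.0923 and 0.147 FPKM to 9.19 and 7.69 FPKM, and Arhgef19 from 4.89 and 4.72 FPKM to 23.9 and 23.3 FPKM. In control shRNA cells 12 of 20 fell and 5 rose at 24 h, when 45.1% of all tested genes were called lower and 25.5% higher. Between KD and control cells, 2 of the 20 effectors were higher in KD cells and 4 lower when untreated (10.6% and 9.09% of all tested genes). At 8 h 9 were higher and 4 lower (19.3% and 16.5%), and at 24 h 7 were higher and 0 lower (16.8% and 11.5%). Spint2 was among the higher at each time, by 0.28 untreated (adjusted p = 0.0242), 0.56 at 8 h (adjusted p = 0.000641) and 0.34 at 24 h (adjusted p = 0.00851).

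Among 15 other epithelial regulators 7 were tested in parental cells, of which 3 fell and 2 rose at 24 h (median -0.12). Of all tested genes 37.1% were called lower and 33.4% higher in that comparison. Cdx2 went from 7.70 and 7.45 FPKM to 0.736 and 0.580 FPKM and Hnf4a from 79.9 and 83.9 FPKM to 24.6 and 26.8 FPKM, both being factors best known from gut and liver, while Sox9 rose from 5.51 and 5.99 FPKM to 10.97 and 10.12 FPKM and Tead1 from 9.18 and 10.2 FPKM to 12.9 and 12.4 FPKM. In control shRNA cells 5 of 7 fell and 1 rose at 24 h, when 45.1% of all tested genes were called lower and 25.5% higher. Sox9 was not called there (0.02, adjusted p = 0.936). Hnf4a was higher in KD than in control cells at each time, 1.37 times untreated, 1.80 times at 8 h and 3.95 times at 24 h. Its log2 differences were 0.46 (adjusted p = 0.0093), 0.83 (adjusted p = 0.00029) and 1.81 (adjusted p = 1.76e-05).

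Of 12 EMT factors 10 were tested in parental cells, and at 24 h 8 rose, 1 fell and 1 was not called (median 0.84), beside 33.4% of all tested genes called higher. Zeb1, a repressor of epithelial genes, went from 5.24 and 5.79 FPKM to 20.2 and 19.8 FPKM, and Snai1 from 1.93 and 2.29 FPKM to 13.1 and 10.9 FPKM. Twist2 fell from 9.62 and 8.86 FPKM to 4.04 and 3.89 FPKM. In control shRNA cells 7 of 9 rose and 2 fell at 24 h, beside 25.5% of all tested genes called higher and 45.1% lower. In KD against control cells at 24 h 1 of 9 was higher and 3 were lower (median -0.15), beside 16.8% of all tested genes called higher and 11.5% lower. Zeb1 was at -0.15 (adjusted p = 0.0946) and Snai1 at -0.25 (adjusted p = 0.0746).

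The non-member genes whose pattern was closest to each tested member were found over 7 differences (parental 8 and 24 h against untreated, and the 5 other shRNA groups against untreated control) among 10843 genes tested in both tables. For Ehf they were Atp7b and Inpp5j (root mean square difference 0.15 and 0.25 on the log2 scale), for Klf5 Cpne2 and Rab17 (0.15 and 0.16), for Elf3 Cryl1 and Pear1 (0.09 and 0.11), for Klf4 Enpp4 and Setbp1 (0.06 and 0.08) and for Grhl1 Mrpl51 and Slc35a3 (0.10 and 0.11). Because 1 FPKM is added, a match on this scale is not a match in ratio for a gene as low as Grhl1. In parental cells at 24 h Grhl1 was at 35.3% of its untreated mean. Mrpl51 went from 62.4 to 40.2 FPKM and Slc35a3 from 23.7 to 14.5 FPKM (means taken on the log2 scale).

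Lamin B1 and ATAC peaks were then located at the 9 genes on mm9, the build of the peak files. Lamin B1 is a nuclear lamina protein, which the study mapped in a chromatin fraction enriched for open regions, and ATAC-seq marks DNA accessible to the Tn5 transposase. A gene was lamin B1 + where a peak overlapped it from 2500 bp upstream of its start site to its 3′ end, and its promoter was counted as accessible where an ATAC peak reached to 500 bp or less from the start site. With 1 library per time, presence of a peak is a description with no test. The lists differ in length (4645, 10484 and 7083 lamin B1 peaks and 9782, 10340 and 33811 ATAC peaks at 0, 8 and 24 h), and their depth is unknown, so that list length and time cannot be told apart.

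By this rule the number of lamin B1 + members was 3 of 9 before treatment, 6 at 8 h and 4 at 24 h, where 19.9%, 38.8% and 29.4% of the 20994 genes placed by symbol were. An accessible promoter was found in 2 of 9 untreated, 3 of 9 at 8 h and 6 of 9 at 24 h, where 30.6%, 25.0% and 47.1% of all placed genes had one. With lists trimmed to equal numbers of peaks the lamin B1 counts were 3, 5 and 3 and the ATAC counts 2, 3 and 4.

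**Figure D4:**
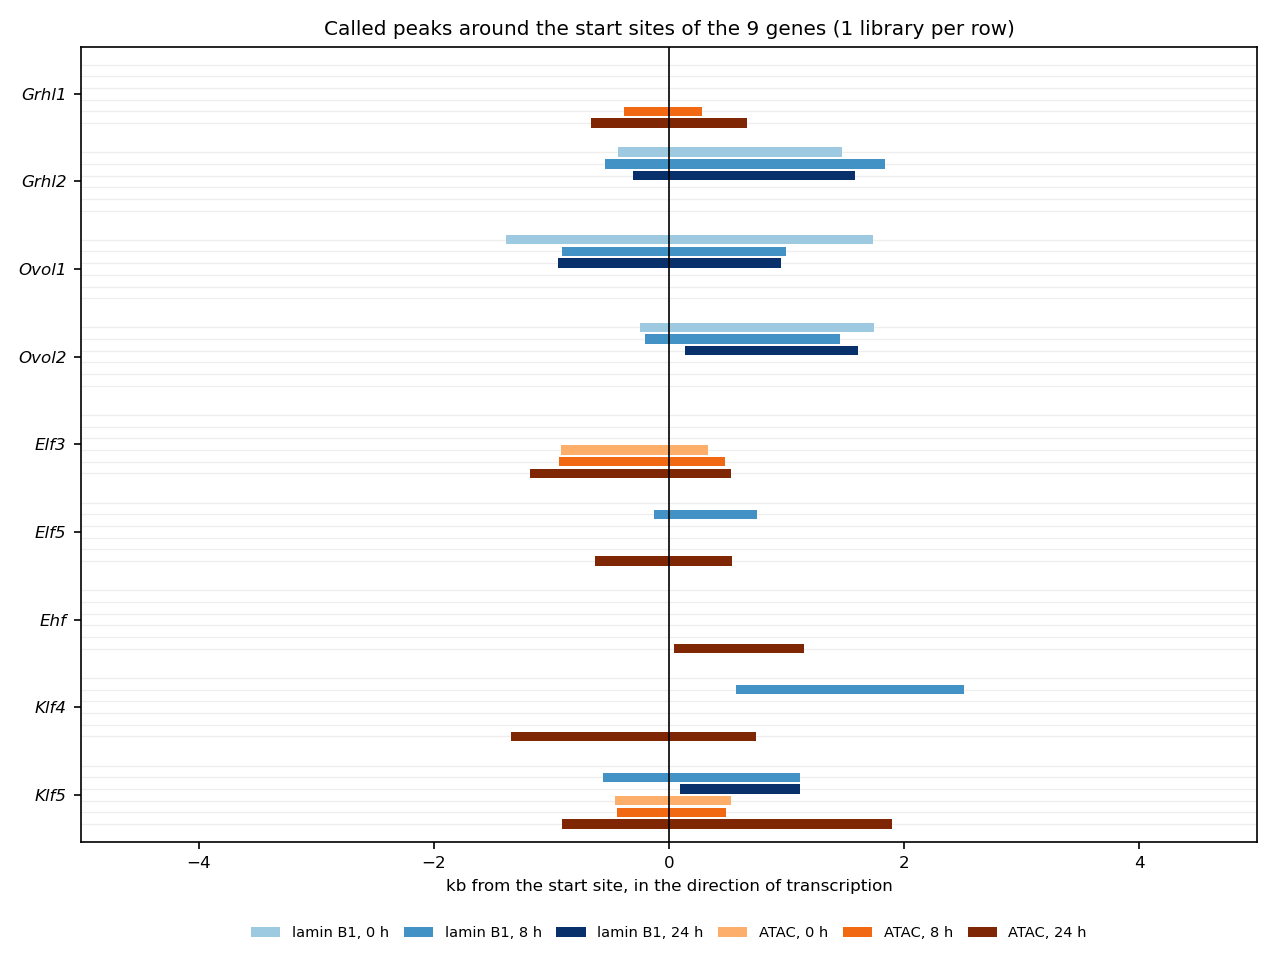
Extent of called peaks around the start site of each gene (horizontal axis, kb in the direction of transcription), with lamin B1 in blue and ATAC in orange and brown at 0, 8 and 24 h from top to bottom in each gene, 1 library per row. Grhl2, Ovol1 and Ovol2 have lamin B1 at the start site at all 3 times and no ATAC peak within 500 bp of it, and Elf3 has ATAC there at all 3 times and no lamin B1 over the gene.

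The silent members Grhl2, Ovol1 and Ovol2 were the 3 that were lamin B1 + throughout, and none of them had an ATAC peak within 500 bp of its start site at any time. Grhl2 (chr15:37162791-37293324, plus strand) carried lamin B1 at chr15:37162359-37164265 untreated (score 123, 432 bp upstream to 1474 bp downstream of the start), over a coding exon, with scores of 216 at 8 h and 215 at 24 h. Ovol1 (chr19:5549137-5560575, minus strand) carried it at chr19:5558839-5561959 untreated (score 114) and with scores of 245 and 234 thereafter. Ovol2 (chr2:144130911-144157882, minus strand) carried it at chr2:144156138-144158126 untreated (score 102), with 152 at 8 h and 59.3 at 24 h, when the peak began 134 bp downstream of the start and fell below the median score of its list. Peak scores are those of the peak caller MACS and are not comparable across libraries of different depth. The closest start site to the centre of these peaks was that of Gm16136 at Grhl2 and of 1700108N11Rik at Ovol2, so that the peaks cannot be given to the members alone.

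Across all placed genes, 9.66% had lamin B1 within 500 bp of the start site at all 3 times, 52.7% had no ATAC peak there at any time, and 0.595% had both features, which Grhl2, Ovol1 and Ovol2 share. The pair of features was described from these 3 genes, so the shares given here are a description and no test. Elf5, also close to silent, did not have it, with lamin B1 there at 8 h alone and an ATAC peak at 24 h. Among 10237 genes under 1 FPKM in every parental library the last share was 0.694%, and among the 1703 of these with a CpG-rich start site (GC of 55% or more and CpG observed over expected of 0.6 or more within 500 bp) it was 3.17%. All 3 genes met that CpG limit, at 56.7% GC and 0.757 for Grhl2, 65.7% and 1.04 for Ovol1 and 58.4% and 0.630 for Ovol2, against medians of 55.1% and 0.560 over all placed genes. ATAC peaks lay farther off, relative to the start site at -8910 to -6204 bp at Ovol1 and at -37707 to -36198 bp at Ovol2 at 24 h, with peaks inside these stretches at the other times, and in an intron of Grhl2 31025 bp from the start at 24 h. Lamin B1 peaks overlapped the Ovol1 stretch at all 3 times (scores 477, 676 and 640, above those at its start site). They overlapped the Ovol2 stretch at 8 and 24 h (scores 120 and 87.2). The closest start sites were those of Gm962 and Csrp2bp.

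Klf5 (chr14:99697910-99712624, plus strand) carried both marks. Its promoter had an ATAC peak at each time (scores 101, 85.3 and 369), the untreated one at chr14:99697453-99698434, and lamin B1 joined at 8 h (chr14:99697345-99699026, score 150) and 24 h (chr14:99698005-99699027, score 134) over a coding exon. Klf5 RNA fell over the same times. Klf4 (chr4:55540013-55545347, minus strand) was lamin B1 + at 8 h alone, at chr4:55542837-55544779 over a coding exon and 568 bp or more from the start site (score 175), and had an ATAC peak at its promoter at 24 h alone (score 274).

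Elf3 (chr1:137150151-137155049, minus strand) had an ATAC peak at its promoter at each time (scores 171, 95.7 and 417, untreated at chr1:137154715-137155965) and no lamin B1 peak over the gene. The lamin B1 peak nearest to it lay at -25971 to -24564 bp at 8 h, closest to the start site of Rnpep, with peaks inside this stretch at the other times. Ehf (chr2:103103590-103143435, minus strand) had no lamin B1 peak within 50 kb at any time. An intronic ATAC peak (untreated at chr2:103125382-103126522) lay inside Ehf, 16946 to 18169 bp from the start site at 8 h and overlapping that stretch at the other times, with scores of 93.7, 87.3 and 55.4, and 10 ATAC peaks lay within 50 kb of the gene at 24 h, 5 of them inside it, of which 1 was at the promoter (score 132). Ehf thus had its most ATAC peaks at the time of its lowest RNA, in the ATAC list that was also the longest.

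Grhl1 (chr12:25257152-25302256, plus strand) had no lamin B1 peak over the gene and an ATAC peak at its promoter at 8 h (score 86.2) and 24 h (score 516), not in untreated cells, in which its RNA was highest. Elf5 (chr2:103251845-103291146, plus strand) had lamin B1 over its start site at 8 h alone (chr2:103251721-103252592, score 74.9) and an ATAC peak there at 24 h alone (chr2:103251216-103252380, score 139), the time at which its RNA was highest in each cell type. Both Elf5 peaks scored below the median of their lists. A promoter ATAC peak at 24 h but not untreated was seen at Grhl1, Elf5, Ehf and Klf4, and at 16.7% of all placed genes. The share was 27.85% among genes at 1 FPKM or more in some parental library and 4.89% among the rest. The Ehf promoter peak (score 132) also lay below the median of its list (155).

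The 250 bp upstream of the start sites are printed for 2 members, on mm9 and 5′ to 3′ on the strand of the gene, because their peaks differ: Klf5 carried both lamin B1 and ATAC peaks, and Elf3 was accessible without lamin B1. Capitals mark CACCTG (the E-box bound by Snail and Zeb repressors), CACCC (the Klf box) and CCGCCC (the GC box) or their reverse complements.
Klf5 (chr14:99697660-99697909, plus strand): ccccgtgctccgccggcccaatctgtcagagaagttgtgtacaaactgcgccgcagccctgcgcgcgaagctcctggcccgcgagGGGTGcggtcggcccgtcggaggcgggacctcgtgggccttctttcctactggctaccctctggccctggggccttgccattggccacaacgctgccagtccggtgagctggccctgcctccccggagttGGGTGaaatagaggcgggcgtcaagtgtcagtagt
Elf3 (chr1:137155050-137155299, minus strand): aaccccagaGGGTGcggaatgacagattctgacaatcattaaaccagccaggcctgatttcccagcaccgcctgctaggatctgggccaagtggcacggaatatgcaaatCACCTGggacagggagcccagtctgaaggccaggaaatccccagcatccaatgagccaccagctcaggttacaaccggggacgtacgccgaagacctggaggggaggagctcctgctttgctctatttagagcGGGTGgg

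In the printed stretches, searched on both strands, Elf3 holds CACCTG once, 140 bp from the start, a motif found in 16.8% of all promoters of that length, and both Elf3 and Klf5 hold CACCC with 2 copies each (52.8% of all promoters). Motifs of the other members are not given, so nothing is said of how they compare. A match is a run of letters and not a binding site, and no factor was mapped at them here.

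The CpG ratio around the start site, which the rule did not use, differed among the members. Within 500 bp of the start site Grhl1, Klf4, Klf5 and Ovol1 held 65.7% to 69.8% GC with a CpG ratio of 0.836 to 1.04, Grhl2 held 56.7% with 0.757 and Ovol2 58.4% with 0.630, whereas Ehf held 46.5% GC with 0.296, Elf5 55.8% with 0.193 and Elf3 56.5% with 0.326. The 3 ETS members thus lay below the median CpG ratio of placed genes and the other 6 above it, while the GC content of Elf3 and Elf5 was close to that of Grhl2 and Ovol2. Lamin B1 lay within 500 bp of the start site at more than 1 time in Grhl2, Ovol1, Ovol2 and Klf5. All of these were on the CpG-rich side, as were Grhl1 and Klf4, which had none. Against this, Elf5 had lamin B1 there at 8 h alone and held the lowest CpG ratio of the members (0.193). A link between lamin B1 and the CpG ratio was not tested.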

How the data were processed

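Per the labels, RNA, lamin B1 ChIP and ATAC libraries of NMuMG cells were processed by the submitters with Bowtie, TopHat and Cufflinks on mm9, versions and annotation not given in the sources used here. The authors deposited FPKM per gene and library for 18 RNA libraries, and peak lists whose deposited score is that of MACS (lowest value 50), with replicate ChIPs mixed into 1 library per time. The 9 members and all gene lists were chosen with earlier results of these data known. Values were tested as log2(FPKM + 1) with limma 3.58.1 (R 4.3.3, eBayes with trend), all libraries of a table in 1 fit, over genes reaching 1 FPKM in 2 or more libraries, with Benjamini-Hochberg adjustment over all of them. The fit was tested on simulated data. Beside members and Lmnb1, named genes are the 2 largest called rises and falls of each list at 24 h in parental cells with a group mean of at least 5 FPKM, and the 2 genes closest in pattern to each tested member. Markers quoted for the check of the cell line, and Elf5 outside the filter, were picked after values were seen. Peaks were overlapped by at least 1 bp with GENCODE M1 genes, the 5′ end of the gene taken as the start site. All but 3 of the peaks lay on placed chromosomes, and all of those lay within the lengths of the mm9 reference. Parental columns carry no replicate number. Results were recomputed with a constant of 0.1, without the filter, after quantile normalization, with only the groups compared, without each library in turn, with a replicate block, and with other peak scores and windows. Promoter sequences and motif matches of the members other than Klf5 and Elf3 are not reported here.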

Additional observations from a re-analysis of the deposited data

Results flagged for a closer look

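Elf5, chosen for attention after its values were seen, was flagged for its difference in response between KD and control cells. Fitted without the filter on low values, its rise at 24 h of TGF-β was 0.27 larger in KD than in control cells on the log2(FPKM + 1) scale (limma, adjusted p = 0.0211), with both KD libraries (39 and 42 fragments) above both control libraries (10 and 15 fragments). The call held in 6 of 10 alternatives chosen after seeing the data, whose adjusted p ran from 0.0110 to 0.0771. With a constant of 0.1 in place of 1 the difference was 1.13 (adjusted p = 0.0693). No test of samples that stand apart was made, since groups hold 1 or 2 libraries.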

How the results depend on the processing

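Each member difference was recomputed under 8 to 13 alternatives, which gave 565 values for the 60 differences tested. Of these, 537 kept their side of the threshold, 27 calls were lost and 1 was gained, and no called difference reversed. Values without a call in either fit were counted as kept whatever their direction. Some of those changed sign, such as Ehf in untreated KD against control cells, which ran from -0.32 to 0.26. The lost calls belonged to Grhl1, to Klf5 in untreated KD against control cells, and to Elf3 and Klf4 at 24 h in a fit of only the 2 groups. Of 137 recomputed counts of members, 129 stayed within 1.5 times their main value. Without the filter, KD cells at 8 h against untreated gave 5 called members of 9 and the difference in response at 24 h gave 1 of 9. In a fit of only the groups compared, untreated KD against control cells gave 1 called member and the 24 h comparison gave 0. Leaving out any 1 library gave 1 called member in untreated KD against control cells throughout, in place of 2. Deviations of same-numbered shRNA libraries from their group means correlated at -0.135 to 0.368, over 0.1 in 2 of 15 pairs of groups. The labels do not say whether the numbers pair libraries, which these correlations cannot settle, and the main fit used no pairing. With a replicate block the 24 h comparison of KD and control cells gave 2 called members, since Grhl1 was lost (adjusted p = 0.0580), and every other count was that of the fit without the block. The cause of the lost calls was not tested. Grhl2, Ovol1 and Ovol2 rest on 28 fragments or fewer per library, and peaks on 1 library per time.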
